A study of Homo sapiens with 16 samples.

Results

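CCND2 (cyclin D2), CDK6 (cyclin-dependent kinase 6) and CCNI (cyclin I) are the cyclin and G1 kinase mRNAs described here, measured in RNA recovered with an antibody to the RNA-binding protein HuR. The 3 genes, of 20046 that the platform annotation names, were chosen by their intensity in HuR against control (IgG) immunoprecipitates (IPs) under both siRNAs. Every probe annotated to them was taken, which gave 4 of the 47231 probes on the array: ILMN_2067656 and ILMN_1667081 for CCND2, ILMN_1802615 for CDK6 and ILMN_1691942 for CCNI. All 4 were among the 1438 probes that passed the filter for detected signal (4 or more of the 16 arrays with a detection p under 0.01), CDK6 with exactly 4 such arrays.

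The cells were U2OS, a human osteosarcoma line, synchronized in the cell cycle; the phase is not given for any sample. All cells received an siRNA for 48 h, either a control siRNA or an siRNA against MIR100HG, the long non-coding RNA host gene of a microRNA cluster. Lysates were then immunoprecipitated with an antibody to HuR or with IgG, which measures RNA carried along without HuR. The 4 groups (IgG with control siRNA, IgG with MIR100HG siRNA, HuR with control siRNA, HuR with MIR100HG siRNA) hold 4 arrays each, which the design text calls biological replicates. The treatment protocol spells the siRNA target with another number than the design text does, so the target is named here as in the design text. Input RNA was not analysed here, so the amount of an mRNA in the cells and the share of it bound by HuR cannot be told apart, and neither can fewer cells in a lysate and less RNA per cell.

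HuR, the product of ELAVL1, binds AU-rich and U-rich stretches, often in the 3′ untranslated regions of mRNAs, and is known for stabilizing many of them. D-type cyclins such as cyclin D2 bind the kinases CDK4 and CDK6 in G1, and the active complexes phosphorylate the retinoblastoma protein, which releases E2F factors and lets cells enter S phase. Cyclin I is an atypical cyclin studied mainly in cells that no longer divide.

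The arrays carried little signal. Between 553 and 2592 probes were detected at p under 0.01, while the median intensity lay between 42 and 50 arbitrary units on every array. On the array of HuR replicate 2 under MIR100HG siRNA, 2592 probes were detected and the intensity reached 6370. The other 15 arrays had 553 to 1407 detected probes, and the other 3 HuR arrays with MIR100HG siRNA had highest intensities of 314 to 334. Values that rest on replicate 2 are therefore given with and without it below. MIR100HG itself (ILMN_3244176) and ELAVL1 (ILMN_1764873) were detected on 0 of 16 arrays at p under 0.05, so neither the depletion nor the labels could be checked on these arrays. None of the 17 probes of an osteoblast and mesenchymal marker list of 11 genes passed the filter, and 16 of them were detected on 0 arrays. No epithelial, blood, hepatocyte or neural marker passed it either, so the labelled cell type could not be checked.

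**Figure D1:**
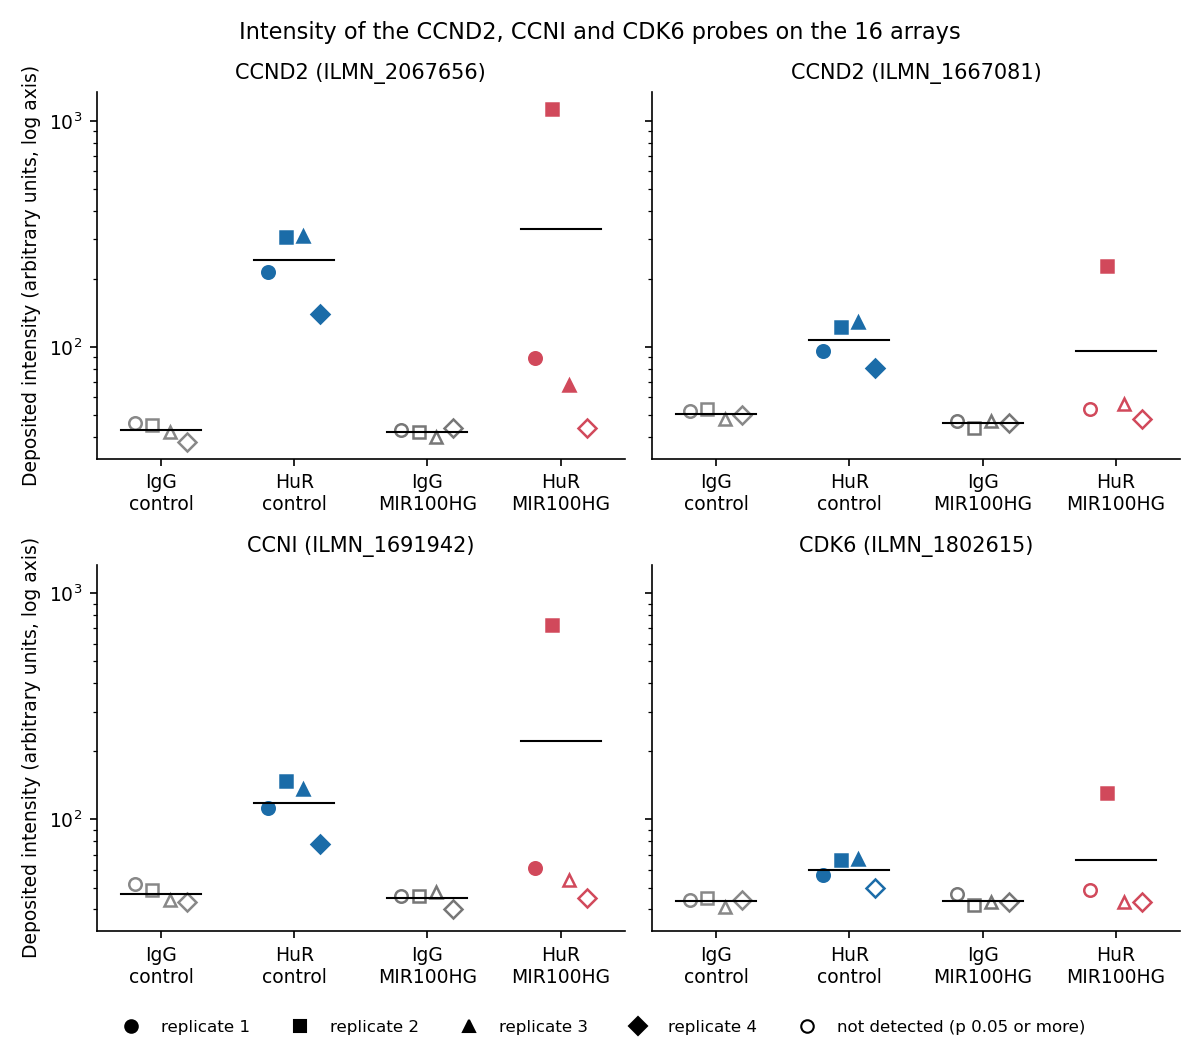
Deposited intensity (arbitrary units, log axis) of the 4 probes on all 16 arrays, by IP and siRNA. Symbols mark replicates 1 to 4, open symbols arrays where the probe was not detected at p under 0.05, and bars the mean of 4 arrays. The IgG arrays sit between 38 and 53 for every probe, and HuR replicate 2 under MIR100HG siRNA is the highest point of every panel.

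CCND2 signal was higher in HuR than in IgG IPs by both of its probes. With control siRNA, ILMN_2067656 read 215, 307, 308 and 140 in HuR replicates 1 to 4, a mean of 242.5 ± 81.1 (SD, n = 4). In the matching IgG IPs it read 46, 45, 42 and 38, a mean of 42.8 ± 3.59 (SD, n = 4). The lowest HuR array was well above the highest IgG array, and detection (p under 0.05) held for 4 of 4 HuR arrays and for 0 of 4 IgG arrays.

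With MIR100HG siRNA the same probe gave a wide range. The 4 HuR arrays read 89, 1132, 68 and 44, a mean of 333.25 ± 533 (SD, n = 4) that fell to 67 ± 22.5 (SD, n = 3) without replicate 2. The IgG arrays read 43, 42, 40 and 44, a mean of 42.3 ± 1.71 (SD, n = 4). Replicates 1, 2 and 3 were above every IgG array and detected, whereas replicate 4 equalled the highest IgG array and was not detected (detection p 0.788).

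The second CCND2 probe, ILMN_1667081, showed the same order of groups with control siRNA over a smaller range. It read 96, 123, 129 and 81 in HuR IPs, a mean of 107.25 ± 22.6 (SD, n = 4). The IgG IPs read 52, 53, 48 and 50, a mean of 50.75 ± 2.22 (SD, n = 4). HuR and IgG arrays did not overlap, and detection was 4 of 4 against 0 of 4.

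With MIR100HG siRNA, ILMN_1667081 was detected in HuR IPs on replicate 2 alone. The HuR arrays read 53, 228, 56 and 48, a mean of 96.25 ± 87.9 (SD, n = 4) and of 52.3 ± 4.04 (SD, n = 3) without replicate 2. The IgG arrays read 47, 44, 47 and 46, a mean of 46 ± 1.41 (SD, n = 4). Every HuR array was above every IgG array by intensity, but replicate 4 by only a small step at background level. The median intensity of all probes was also higher on these HuR arrays (48 to 50) than on the IgG arrays (42 to 45).

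CCNI (ILMN_1691942) followed the CCND2 probes. With control siRNA the HuR IPs read 112, 148, 136 and 78, a mean of 118.5 ± 30.9 (SD, n = 4). The IgG IPs read 52, 49, 44 and 43, a mean of 47 ± 4.24 (SD, n = 4). The groups did not overlap, and CCNI was detected on 4 of 4 HuR and 0 of 4 IgG arrays.

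Under MIR100HG siRNA, CCNI was bright on replicate 2 and close to the IgG level on the other arrays. The HuR arrays read 61, 725, 54 and 45, a mean of 221.25 ± 336 (SD, n = 4) and of 53.3 ± 8.02 (SD, n = 3) without replicate 2. The IgG arrays read 46, 46, 48 and 40, a mean of 45 ± 3.46 (SD, n = 4). Replicates 1 and 2 were detected at p under 0.05, and replicate 4 lay among the IgG arrays.

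CDK6 (ILMN_1802615), the catalytic partner of D-type cyclins, lay close to the detection limit. With control siRNA the HuR IPs read 57, 66, 67 and 50, a mean of 60 ± 8.04 (SD, n = 4). The IgG IPs read 44, 45, 41 and 44, a mean of 43.5 ± 1.73 (SD, n = 4). The groups did not overlap, but replicate 4 of the HuR IPs was not detected (detection p 0.143), which left 3 of 4.

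CDK6 with MIR100HG siRNA rested on replicate 2. The HuR arrays read 49, 131, 43 and 43, a mean of 66.5 ± 43.1 (SD, n = 4) and of 45 ± 3.46 (SD, n = 3) without replicate 2. The IgG arrays read 47, 42, 43 and 43, a mean of 43.75 ± 2.22 (SD, n = 4). Replicates 3 and 4 of the HuR IPs lay within the range of the IgG arrays.

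The genes were selected on this contrast, so the HuR minus IgG values describe them and were not tested. With control siRNA, every HuR array was above every IgG array for all 4 probes, a pattern that 25% of the 1438 probes showed. Detection on 4 of 4 HuR and 0 of 4 IgG arrays held for 3 of the 4 probes, all but CDK6, and for 10.7% of all probes tested. All 4 probes were undetected on all 8 IgG arrays, as were 12.1% of the probes tested. With MIR100HG siRNA, full separation of HuR from IgG arrays held for ILMN_1667081 alone of the 4 probes, against 56.1% of all probes. These intensities include background. The median intensity was 48 to 50 on those HuR arrays and 42 to 45 on the IgG arrays, whereas with control siRNA it was 46 to 47 and 45 to 47. Separation under MIR100HG siRNA does not by itself show recovery with HuR.

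Because no IgG array detected these mRNAs, HuR signal is set against the lowest signal that counted as detected on the same IgG array, which gives a lower limit of the fold within a given scaling. With control siRNA, CCND2 ILMN_2067656 was at least 5.91-fold higher in HuR IPs after background correction and quantile normalization, which gives all arrays one distribution. The limit was 8.05-fold without scaling between arrays and 3.61-fold after quantile normalization with HuR replicate 2 under MIR100HG siRNA left out, so at least 3.61-fold held in each of these settings. For CCNI the limits in the same order were 2.60-, 3.35- and 1.91-fold, and for CCND2 ILMN_1667081 they were 2.35-, 2.98- and 1.75-fold. CDK6 reached 1.02- and 1.15-fold, and after quantile normalization with that array left out it had no limit above 1.

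With MIR100HG siRNA the limits depended on HuR replicate 2. CCND2 ILMN_2067656 was at least 2.49-fold higher than IgG after quantile normalization of all 16 arrays, and at least 1.55-fold higher without replicate 2 (1.31-fold without scaling as well). For CCNI the limit was 1.13-fold with all arrays, and none above 1 could be given without replicate 2. ILMN_1667081 and CDK6 had no limit above 1 after quantile normalization (1.48- and 1.14-fold without scaling), and without replicate 2 neither was detected on any HuR array of this group.

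The fitted log2 differences use IgG values at background, so they depend on the normalization and are given only to show its effect. With control siRNA, HuR minus IgG was 3.12 ± 0.46 (log2, SE) for CCND2 ILMN_2067656, 1.85 ± 0.38 for CCNI, 1.59 ± 0.22 for CCND2 ILMN_1667081 and 0.58 ± 0.19 for CDK6, with a median of -0.04 over all 1438 probes. With MIR100HG siRNA the values were 1.91 ± 0.46, 0.70 ± 0.38, 0.33 ± 0.22 and 0.15 ± 0.19 in the same order, with a median of 0.08.

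Leaving out HuR replicate 2 under MIR100HG siRNA changed both sets of values, since the normalization runs over all arrays. For CCND2 ILMN_2067656, CCNI and CCND2 ILMN_1667081 the differences with control siRNA became 2.34, 1.33 and 1.10, and those with MIR100HG siRNA 1.13, 0.10 and 0.03, while CDK6 no longer passed the filter. Without replicate 4 in place of replicate 2, CCND2 ILMN_2067656 stood at 2.63 and CCNI at 0.99 under MIR100HG siRNA.

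**Figure D2:**
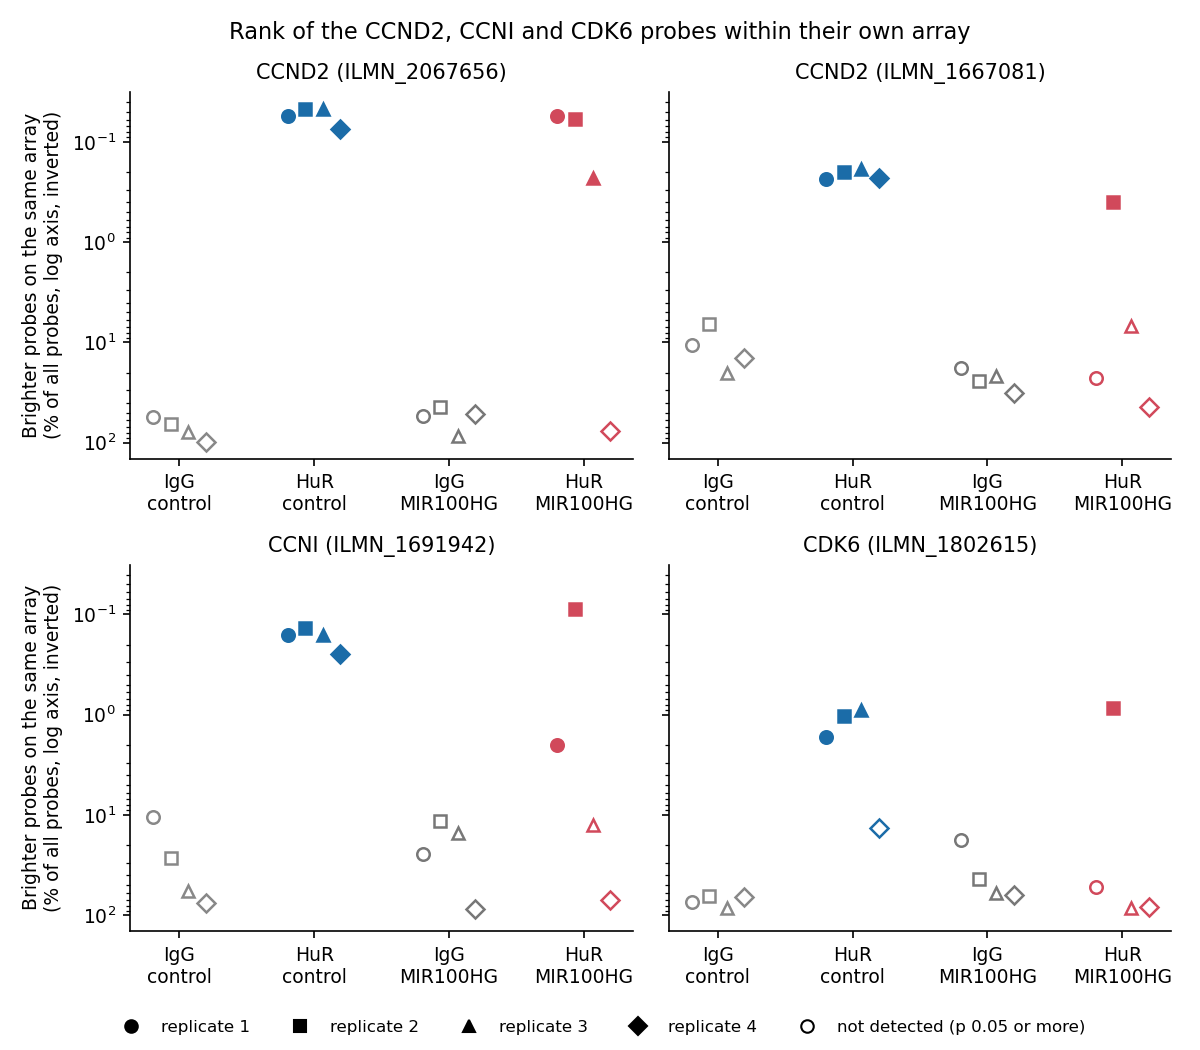
Percentage of the 47231 probes that were brighter than the named probe on the same array (log axis, inverted so that bright probes are at the top), by IP and siRNA. Symbols mark replicates 1 to 4, and open symbols arrays where the probe was not detected at p under 0.05. With MIR100HG siRNA, CCND2 ILMN_2067656 kept a place near the top on replicates 1 to 3, whereas the other probes did so on replicate 2 (CCNI less far from the top on replicate 1 than on 3 and 4).

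The place of a probe within its own array does not depend on scaling between arrays. CCND2 ILMN_2067656 had 26, 22, 22 and 35 brighter probes on HuR replicates 1 to 4 with control siRNA, and 26, 28, 109 and 36375 with MIR100HG siRNA. It therefore stayed among the brightest probes on 3 of 4 arrays although its intensity on replicates 1 and 3 was below that of every control siRNA array. CCNI had 75, 65, 76 and 117 brighter probes with control siRNA, and 953, 42, 5899 and 32928 with MIR100HG siRNA.

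CCND2 ILMN_1667081 had 111, 94, 87 and 109 brighter probes with control siRNA, and 10727, 186, 3242 and 20973 with MIR100HG siRNA. CDK6 had 784, 487, 428 and 6425, then 24689, 409, 40444 and 39355. For these 2 probes and CCNI, replicate 2 was the only HuR array with MIR100HG siRNA whose place was near those of the control siRNA arrays, as the plot of ranks shows.

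The comparison of siRNAs within HuR IPs asks how much of each mRNA was recovered when MIR100HG was targeted. After quantile normalization CCND2 ILMN_1667081 was lower with MIR100HG siRNA, and the other 3 probes had negative differences that did not pass the test. The genes were chosen for high signal on arrays that include the HuR arrays with control siRNA, and ILMN_1667081 met the filter through those arrays and replicate 2 with MIR100HG siRNA. Both choices favour a lower value in the other group, so the p-values below are not evidence independent of the choice. For ILMN_1667081, the normalized values were 5.96 ± 0.089 (log2, SD, n = 4) with control siRNA and 4.62 ± 0.60 (SD, n = 4) with MIR100HG siRNA. The difference was -1.34 on the log2 scale (SE 0.22, 95% confidence interval -1.79 to -0.88, limma adjusted p = 0.00128). Without the filter the limma adjusted p was 0.0193. This fit shares its spread with the IgG arrays, where the probe lay at background (SD 0.056 with control and 0.026 with MIR100HG siRNA). With only the compared groups fitted, the interval was -1.94 to -0.74 (limma adjusted p = 0.0227). All 4 arrays with MIR100HG siRNA had normalized values below all 4 control arrays, although by deposited intensity replicate 2 was the brightest of all, and the other 3 arrays did not detect the probe.

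CCNI had a log2 difference of -1.12 (SE 0.38, interval -1.92 to -0.32, limma adjusted p = 0.0695). CCND2 ILMN_2067656 had -1.18 (SE 0.46, interval -2.14 to -0.22, limma adjusted p = 0.108). CDK6 had -0.37 (SE 0.19, interval -0.78 to 0.04, limma adjusted p = 0.219). These 3 intervals still hold sizable differences, so a missed threshold does not show that levels were alike. The fit called 10% of all 1438 probes (9.87% lower and 0.139% higher), and nothing is read from the share of the 4 probes against it. By the mean of deposited intensities, 3 of the 4 probes were higher with MIR100HG siRNA, through replicate 2.

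The call for ILMN_1667081 depended on the scaling: without scaling between arrays the difference was -1.03 (limma adjusted p = 0.444), and with median centring -1.06 (limma adjusted p = 0.496). Replicate 2 decided the other calls. Without it, the limma differences were -1.14 for ILMN_1667081 (adjusted p = 4.84e-07), -1.20 for CCNI (adjusted p = 2.16e-06) and -1.18 for ILMN_2067656 (adjusted p = 0.0143), among 34% of tested probes called. Without it and without scaling they were -1.84, -1.94 and -2.64, and all 3 passed, among 38.3% of tested probes called. Replicate 2 was the brightest array for each of these probes. On the 3 arrays left in its group, ILMN_1667081 was detected on 0, CCNI on 1 and ILMN_2067656 on 2. The genes were chosen as high in the other group, and the brightest array was removed here. These p-values are therefore not read as support for a loss. Leaving out replicate 4 of the same group brought ILMN_2067656 to -0.54 (limma adjusted p = 0.307).

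CDK6 misses the filter once replicate 2 is left out. Tested without a filter and without that array, its difference was -0.48 (limma adjusted p = 0.00761), where 0.929% of the 47231 probes were called. Without scaling as well it was -0.63 (limma adjusted p = 0.0329), with 1.44% called. Both fits were added after the data were seen and leave out the brightest array for CDK6. On the arrays left in that group CDK6 was detected on 0 of 3, so nothing is read from these p-values.

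**Figure D3:**
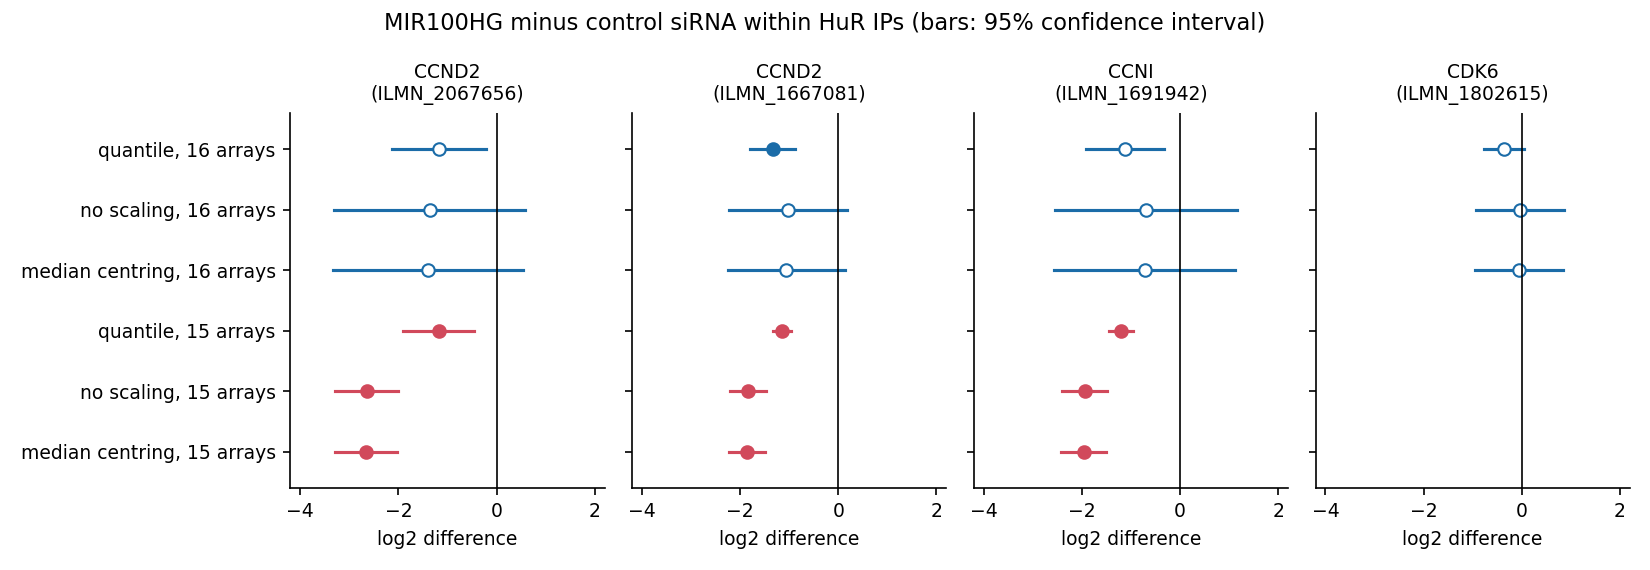
Log2 difference of MIR100HG minus control siRNA within HuR IPs for each probe, with its 95% confidence interval, under 3 scalings, with all 16 arrays (blue) and with 15, HuR replicate 2 under MIR100HG siRNA left out (red). Filled points have a limma adjusted p under 0.05; CDK6 has no value with 15 arrays because it misses the filter. All points drawn lie below 0, and with 16 arrays only ILMN_1667081 under quantile normalization is filled.

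The order of the 8 HuR arrays was nearly alike for the 4 probes. Replicate 2 with MIR100HG siRNA was the brightest of all 16 arrays for all 4, as it was for 55.2% of the probes tested. The control siRNA replicates 2 and 3 came next, then control replicate 1, control replicate 4, and the other 3 arrays with MIR100HG siRNA. Replicates 1, 3 and 4 with MIR100HG siRNA were each below every control siRNA array for all 4 probes, a pattern shared by 27.1% of all probes. By intensity, control replicate 4 was the dimmest of its group for all 4 probes, and it also had the fewest detected probes of that group (752, against 1186 to 1407). Whether the amount of RNA on an array contributed to these orders was not tested.

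Within IgG IPs no fold between siRNAs is given, since all 4 probes were undetected on all 8 arrays. The test there called 5.91% of the 1438 probes.

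The difference of the HuR minus IgG value between siRNAs is made of the contrasts that chose the genes and of IgG values at background, so it is a description with no test. It was -1.26 ± 0.30 (log2, SE) for CCND2 ILMN_1667081, -1.15 ± 0.53 for CCNI, -1.21 ± 0.64 for CCND2 ILMN_2067656 and -0.43 ± 0.27 for CDK6. Without replicate 2 the values were -1.06 for ILMN_1667081, -1.23 for CCNI and -1.21 for ILMN_2067656.

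The 2 CCND2 probes are annotated to the same gene, and their positions in it were not used here. The brightness of a probe depends on the probe as well as on the RNA. Their comparison is thus of how they change between arrays. As a log2 ratio of deposited intensities, ILMN_2067656 over ILMN_1667081 was between -0.40 and -0.06 on the 8 IgG arrays, where neither was detected. On HuR arrays with control siRNA the ratio was 1.16, 1.32, 1.26 and 0.79 on replicates 1 to 4. Under MIR100HG siRNA it was 0.75, 2.31, 0.28 and -0.13, so replicate 2 lay above every control siRNA array and the other 3 lay below every one.

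Normalization changed that order. On the normalized log2 scale the difference of the 2 probes was 1.44, 1.43, 1.37 and 1.09 with control siRNA, and 2.94, 1.70, 1.39 and -0.06 with MIR100HG siRNA. The widest normalized gap was on replicate 1, where ILMN_1667081 was not detected, whereas the widest deposited gap was on replicate 2, the only array of the group that detected both probes.

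**Figure D4:**
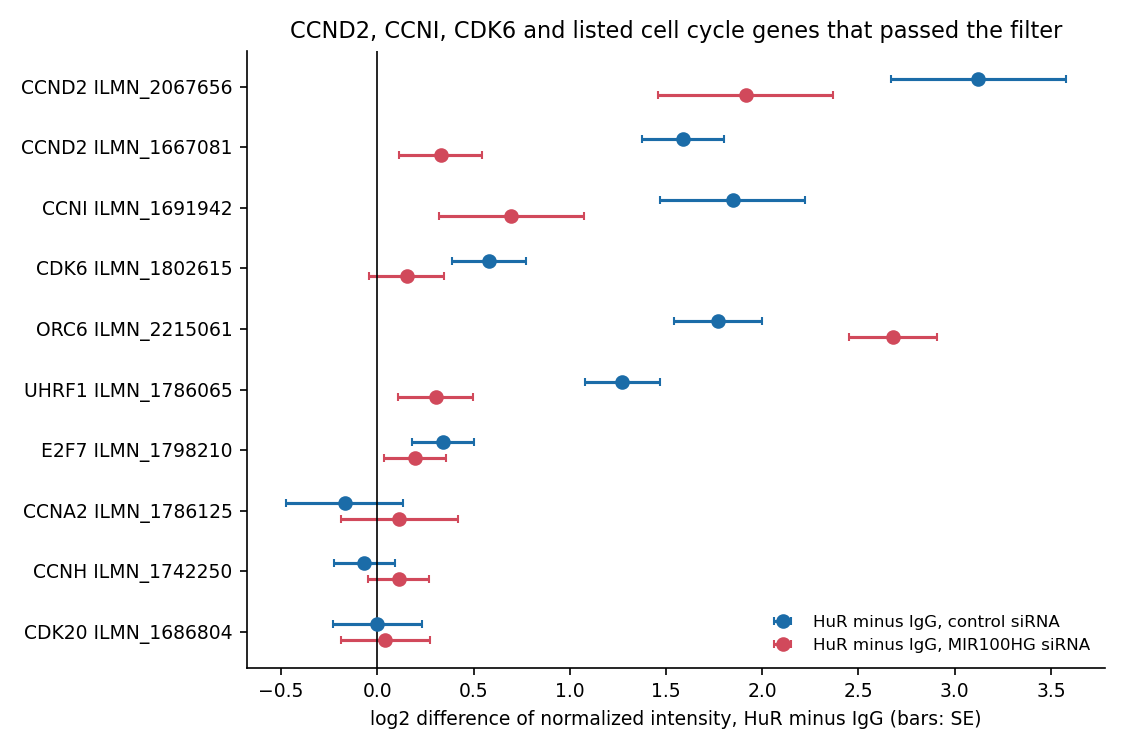
HuR minus IgG log2 difference of normalized intensity (points) with its standard error (bars) under control siRNA (blue) and MIR100HG siRNA (red), for the 4 probes and the genes of the cell cycle lists that passed the filter. IgG values of CCND2, CCNI, CDK6, UHRF1 and E2F7 were not detected, so their differences depend on the normalization. The CCND2, CCNI, CDK6, UHRF1 and E2F7 points lie lower under MIR100HG siRNA than under control siRNA. The ORC6, CCNA2, CCNH and CDK20 points lie higher (without scaling between arrays ORC6 lies lower, at 2.26 against 2.40).

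Few genes of any kind passed the filter in these IPs: 825 of the 20046 named genes. The counts for the cell cycle lists are thus a description, and nothing is read from them. Of the 30 cyclin genes listed, 29 had a probe and 4 passed the filter: CCND2, CCNI, CCNA2 and CCNH. Neither CCNA2, the S and G2 phase cyclin, nor CCNH, the cyclin of the CDK-activating kinase, was called in any contrast. CCNA2 read 57.75 ± 8.66 in IgG and 57.5 ± 1.29 in HuR IPs with control siRNA (SD, n = 4 each), and HuR minus IgG was -0.17 in log2 terms (limma adjusted p = 0.798). CCNA2 was thus detected in IgG IPs as well, unlike CCND2, CCNI and CDK6.

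Among the closest relatives, CCND1, the cyclin D1 gene, missed the filter, yet all 4 HuR arrays with control siRNA passed a detection p under 0.05, at 61, 54, 65 and 54. Its IgG arrays with control siRNA averaged 45.5 ± 3.11 (SD, n = 4). With MIR100HG siRNA, CCND1 read 51, 125, 49 and 42 in HuR IPs and was detected on replicate 2 alone, the same array that stood out for CCND2, CCNI and CDK6. CCND3 was detected on 0 of 16 arrays, and CDK4, the other kinase of D-type cyclins, on 1 of 16, again replicate 2.

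Of 26 cyclin-dependent kinase genes, 25 had a probe and 2 passed the filter, CDK6 and CDK20; CDK20 was not called in any contrast. None of 8 listed kinase inhibitor genes passed. Of 13 genes of the retinoblastoma and E2F group, E2F7, a repressor of E2F target genes, passed alone. Its HuR minus IgG value under control siRNA was 0.34 ± 0.16 in log2 terms (SE, limma adjusted p = 0.142). E2F7 met the filter through 3 HuR arrays with control siRNA and replicate 2 with MIR100HG siRNA, and no IgG array detected it. That value thus depends on the normalization, and its p-value is not independent of the filter.

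The list of 15 further G1/S regulators was drawn up with earlier results of these data known. The p-values of its genes are thus not evidence independent of that choice, with or without a filter. Of the 15, 2 passed the filter and both were called higher in HuR IPs than in IgG IPs under control siRNA. There limma called 27.7% of all probes, 22.3% higher (320 probes) and 5.42% lower (78 probes); without scaling it called 12 higher and 0 lower. UHRF1, an epigenetic regulator of S phase, read 77, 101, 104 and 69 in those HuR IPs and was undetected on all 8 IgG arrays. Its HuR signal was at least 1.79-fold higher than IgG, and at least 1.46-fold higher with HuR replicate 2 under MIR100HG siRNA left out. These limits were not tested. The limma test was of the fitted log2 difference of 1.27, which uses IgG values at background (adjusted p = 0.000259). UHRF1 met the filter through those 4 HuR arrays and replicate 2, which favours a high value there; with no filter on probes the limma adjusted p was 0.00396. With MIR100HG siRNA, UHRF1 read 54, 175, 50 and 44 in HuR IPs and fell by 1.06 on the log2 scale relative to control siRNA (SE 0.19, limma adjusted p = 0.00292; with no filter, adjusted p = 0.0338). That fall was -0.95 without replicate 2 (limma adjusted p = 1.07e-06), with UHRF1 detected on 0 of the 3 arrays left in the group. It was -0.77 without scaling (limma adjusted p = 0.524). A second UHRF1 probe was detected on 0 of 16 arrays.

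ORC6, a subunit of the origin recognition complex, was detected on 4 of 4 IgG arrays with control siRNA, unlike CCND2, CCNI and CDK6. ORC6 probe ILMN_2215061 averaged 199.5 ± 48.3 in HuR and 63.75 ± 11.7 in IgG IPs with control siRNA (SD, n = 4 each), and HuR exceeded IgG by 1.77 ± 0.23 in log2 terms (SE, limma adjusted p = 9.25e-05). With MIR100HG siRNA it read 89, 1326, 78 and 70 in HuR IPs, was detected on all 4, and exceeded IgG by 2.68 ± 0.23 (SE, limma adjusted p = 2.77e-06), where limma called 4.17% of all probes, 3.06% higher and 1.11% lower. Without replicate 2 that ORC6 value was 1.84 (limma adjusted p = 1.06e-05). Within IgG IPs ORC6 was lower with MIR100HG than with control siRNA (-0.83, limma adjusted p = 0.0432, among 5.91% of probes called). Without scaling that IgG difference was -0.53 and not called. After quantile normalization, the larger HuR minus IgG value under MIR100HG siRNA thus went mostly with the lower IgG value. Without scaling it was not larger, at 2.26 against 2.40 with control siRNA. Without scaling and without replicate 2 it was 1.03 against 2.40. By deposited intensity, HuR replicates 1, 3 and 4 with MIR100HG siRNA lay below all control siRNA arrays (141 to 244), and replicate 2 above them. Between siRNAs within HuR IPs the ORC6 difference was 0.08 (limma adjusted p = 0.842) after quantile normalization and -0.68 (limma adjusted p = 0.772) without scaling. Leaving out replicate 2 as well as the scaling gave -1.91 (limma adjusted p = 5.49e-06), so the sign of this ORC6 difference turned with the scaling. Without scaling and with all 16 arrays, neither HuR minus IgG call of ORC6 passed (limma adjusted p = 0.147 and 0.173), and the UHRF1 call with control siRNA did not pass either (limma adjusted p = 0.134). A second ORC6 probe was detected on 0 of 16 arrays.

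The genes whose profile over the 16 arrays was most like each probe were found by the root mean square (RMS) difference of normalized log2 values, each profile centred on its mean. For CCND2 ILMN_2067656 they were CDH2, POTEF, PCBP2, ALKBH5 and AXL, at 0.34 to 0.48, where the median probe was at 1.52. For CCND2 ILMN_1667081 they were SNHG10, UBE2C, YWHAZ, DPYSL2 and HMGN2, at 0.12 to 0.15 with a median of 0.82 for all probes. UBE2C encodes a ubiquitin-conjugating enzyme of mitotic exit.

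For CCNI the nearest profiles were those of PCBP1, KPNA4, CHP1P2, AXL and HCFC1, at 0.19 to 0.22, with a median of 1.00. For CDK6 they were PTMA, B4GALT1, GRPEL2, SNRNP40 and MCMDC2, at 0.066 to 0.085, but the CDK6 profile was nearly flat and the median probe stood at 0.49. The 2 CCND2 probes were 0.95 apart, with 77 probes nearer to ILMN_2067656 and 1141 nearer to ILMN_1667081 than the other CCND2 probe. CCNI and ILMN_1667081 were closer, at 0.33, with 26 probes nearer to CCNI. These distances are a description over arrays that share a normalization and the same bright replicate.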

How the data were processed

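Per the labels' protocols, RNA from HuR or IgG immunoprecipitates was copied with an oligo-dT primer, amplified, labelled and read on Illumina bead arrays. The deposited intensity values are linear bead summaries with no normalization between arrays; per the submitters' processing notes GenomeStudio 2011.1 was used. Per the file headers a detection p-value goes with each, which sets the probe against negative controls. The deposited value table holds a score per probe, made in a way not given in the sources used here; 15 columns followed the log2 intensity of their array (r of 0.997 or more) and 1 column that did not was left out.

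The platform annotation gave 1 gene for 30113 of 47231 probes, several for 8 and none named here for 17110; 30074 symbols were updated through gene identifiers and 39 kept. Probe positions and sequences were not used here. Intensities were normalized with neqc (offset 16, quantile, log2) in limma 3.58.1 under R 4.3.3, and the 1438 probes (3.04%) with 4 or more arrays at a detection p under 0.01 were kept, each as its own row. The test was limma with 4 group means over 16 arrays and Benjamini-Hochberg adjustment over all kept probes, at an adjusted p under 0.05. It was also run on simulated data, where a probe had the same spread in all groups and no array stood apart. The arrays here differ in both, so that run does not show how the test behaves on them. Quantile normalization forces one distribution on arrays whose amount of signal differed here, which can move differences either way. A planned test of the enrichment difference was not used for the 3 genes, as it contains the contrasts that chose them.

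The 3 genes, the gene lists and the tests were chosen with earlier results of these data known. Named genes were all probes of the 3 genes, MIR100HG, ELAVL1, CCND1, CCND3, CDK4, list members that passed the filter, and the 5 named genes with the nearest profile to each probe. No pair of arrays in a group was a duplicate (8.25% to 11.0% of probes identical). The sample descriptions number IPs consecutively within groups, so handling order cannot be told apart from group, and p-values measure the spread between these arrays, whose number limits the precision. Alternatives were other scalings, offset, filters, 1 probe per gene, the deposited scores, the replicate block, the compared groups alone and each array left out; a slide block was not run, as the files name no slides.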

Additional observations from a re-analysis of the deposited data

Results flagged for a closer look

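On HuR replicate 2 under MIR100HG siRNA, all 4 probes lay far above the other 3 arrays of the group. The intensity of CCND2 was 1132 by ILMN_2067656, where the others read 44 to 89, and 228 by ILMN_1667081, where the others read 48 to 56. CCNI was at 725 against 45 to 61, and CDK6 at 131 against 43 to 49. The gap to the nearest array took between 0.932 and 0.976 of each group's whole range, above Dixon's critical value for a group of this size. Chance flags about 1 in 20 groups, and these 4 values are readings of 1 array, so they do not count as separate observations. The same array had 2592 detected probes, where the other 3 had 563 to 824, and the gap took 0.871 of that range. Of all tested probes, 55.2% were brightest on this array. Whether the amount of RNA on it contributed to the values of the 4 probes was not tested.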

How the results depend on the processing

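The differences between siRNAs within HuR IPs were negative for all 4 probes in every setting run, but CDK6 was at -0.06 with median centring and -0.03 without scaling, and in the quantile fit only CCND2 ILMN_1667081 passed. Which probes passed depended on the scaling and on HuR replicate 2 under MIR100HG siRNA, and the cause was not tested. For the siRNA difference within HuR IPs, CCND2 ILMN_1667081 lost its call with median centring (-1.06) and without scaling (-1.03). CCNI gained a call with quantile normalization within each IP type (-1.16). With HuR replicate 2 left out, median centring gave -1.97 for CCNI and -2.66 for CCND2 ILMN_2067656, and no scaling gave -1.94 and -2.64, all past the threshold. Without replicates 2 and 4, an alternative added after the data were seen, CCNI was at -1.14 and passed. CDK6, tested without a filter and without replicate 2, also added later, passed at -0.48 and, without scaling too, at -0.63. In the same settings its HuR minus IgG value under MIR100HG siRNA turned to -0.060 and -0.018.

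The difference of enrichment, a description, was negative for the 4 probes in every setting that gave a value. It lay at -1.75 for CCND2 ILMN_1667081, -1.95 for CCNI and -2.66 for CCND2 ILMN_2067656 without scaling and without replicate 2.

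Leaving out each array in turn gave siRNA differences of -1.38 to -1.14 for CCND2 ILMN_1667081 (past the threshold in 16 of 16 fits), -1.22 to -0.88 for CCNI and -1.58 to -0.54 for CCND2 ILMN_2067656 (1 of 16 each, without replicate 2), and -0.51 to -0.29 for CDK6 (0 of 12). Differences of enrichment ranged from -1.32 to -1.06, -1.24 to -0.91, -1.61 to -0.57 and -0.57 to -0.35 for CCND2 ILMN_1667081, CCNI, CCND2 ILMN_2067656 and CDK6. HuR minus IgG with control siRNA, a description, ranged from 1.10 to 1.65, 1.33 to 1.94, 2.34 to 3.24 and 0.58 to 0.72 in the same order. All fits that left out an array in turn used quantile normalization, so they do not show the effect of the scaling. With median centring or no scaling of all 16 arrays, CCND2 ILMN_1667081 lost its call.

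Counts of probes called by limma are given in the order HuR minus IgG with control siRNA, the same with MIR100HG siRNA, siRNAs within HuR, siRNAs within IgG, and difference of enrichment. They were 398, 60, 144, 85 and 5. Median centring gave 12, 0, 20, 0 and 0, with 217, 74 and 108 probes at an unadjusted p under 0.05 for the counts of 0, and no scaling gave 12, 0, 5, 0 and 0, with 302, 78 and 141. Quantile normalization within IP type gave 413 (412 higher), 103, 323, 0 (106 unadjusted) and 33. An offset of 50 gave 394, 45, 122, 72 and 15. The deposited scores gave 283, 0 (146 unadjusted), 94, 4 and 1. No filter gave 160, 8, 37, 25 and 2, a filter at detection p 0.05 gave 358, 16, 103, 54 and 6, and 1 probe per gene gave 363, 58, 128, 80 and 5. The fits of only the groups compared gave 499, 8, 88 and 36. Without replicate 2, median centring gave 319, 5, 452, 98 and 273, and no scaling 321, 29, 452, 100 and 274. Without replicates 2 and 4 they were 326, 85, 305, 116 and 131. Leaving out 1 array gave 255 to 408, 24 to 96, 66 to 401, 49 to 120, and 1 to 161, with 401 and 161 both without HuR replicate 2 under MIR100HG siRNA. The lowest counts came without HuR control replicate 1 (255 and 1), without HuR MIR100HG replicates 3 (24) and 4 (66) and without IgG MIR100HG replicate 3 (49).

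With the replicate block the counts were 391, 59, 141, 73 and 2, and the call of CCND2 ILMN_1667081 stayed (-1.34, limma adjusted p = 0.0032). Same-numbered arrays of different groups did not deviate together (median r 0.0035, 4 of 24 pairs over 0.1), and 5 of 16 arrays correlated best with their own number. The replicate numbers thus gave no sign of pairing. With so little signal on the arrays this does not exclude it, and pairing by IP number was not checked. CDK6 and the HuR arrays with MIR100HG siRNA other than replicate 2 lay near the detection limit, which limits what their values can show.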
